A study of Mus musculus with 7 samples.

Results

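MITF sites without any PU.1 peak were chosen by position, as the MITF peaks of bone marrow cells that shared no base with a peak of any of the 3 PU.1 lists. Peaks that overlapped across the 3 MITF lists were joined into 1 region, which gave 519 regions from 560 of the 13396 MITF peaks. All MITF peaks joined in the same way gave 7693 regions, and the MITF peaks with a PU.1 peak gave 7182. The first and the last number add to more than 7693 because 8 of the 519 regions overlapped a MITF peak of another list that had a PU.1 peak. The regions were thus chosen by the presence of a MITF peak and the absence of PU.1 peaks, both measured in these libraries, and the share of peaks without PU.1 is given as a description.

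In ChIP-Seq, DNA that is bound by a protein is pulled down with an antibody and sequenced, and places covered by many sequenced fragments (tags) are called peaks. Marrow of mice of the strain labelled C57BLACK6, 4 to 6 weeks old, was grown for 3 days with 50 ng per mL of CSF1, the cytokine that maintains the macrophage lineage. These cells, treated with CSF1 only, are the myeloid precursors (MPs), and 100 ng per mL of RANKL, the cytokine that drives osteoclast formation, was added for 36 h or for 72 h, the latter giving the osteoclasts (OCs). Antibodies against PU.1 or MITF (5 µg) were used on all 3 conditions and non-specific IgG on MPs, so that there are 7 libraries, 1 per condition. No difference has a replicate check, no p-value is given, and all intervals are 95% intervals for counting error only. Of 7 annotated marker genes of macrophages and their precursors, 7 had a PU.1 peak within 3 kb of the start site in each PU.1 list. So did 0 of 3 B cell, 1 of 3 erythroid, 3 of 4 stromal or osteoblast and 2 of 5 melanocyte markers in each list, and 0 to 2 of 4 T cell markers, so that PU.1 peaks near markers do not by themselves mark the cell type. In each MITF list, 2 of the 7 macrophage markers and 0 markers of the other cell types had a MITF peak within 3 kb.

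MITF belongs to the MiT/TFE family of leucine zipper factors, which bind E-boxes (CANNTG), above all CACGTG and CATGTG, and in OCs MITF is known for driving genes of acid secretion and matrix degradation. PU.1 is an ETS factor that defines the macrophage lineage and binds a GGAAGT core, often as GAGGAAGT. The 2 proteins are known to act together on enhancers of OC genes, and the regions described here are the MITF peaks outside that overlap.

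The sequences below show what such regions look like, as windows of 201 bp around the center of the highest peak on the plus strand of mm9, with CANNTG and GGAAGT on either strand in capitals. The first comes from an intron of Cd180, which encodes a Toll-like receptor homolog of B cells and macrophages, and was called at all 3 times. The second lies in an intron of Tpm3, a tropomyosin gene, and was called in MPs and OCs. The next pair lay nearest to Klf6 and Runx1, the only genes of the fixed lists of OC and MITF target genes that were nearest to one of the 519 regions. The last is the highest region of the largest cluster, over the pseudogene Gm11400 within the Sfi1 locus.
Cd180, chr13:103485705-103485905: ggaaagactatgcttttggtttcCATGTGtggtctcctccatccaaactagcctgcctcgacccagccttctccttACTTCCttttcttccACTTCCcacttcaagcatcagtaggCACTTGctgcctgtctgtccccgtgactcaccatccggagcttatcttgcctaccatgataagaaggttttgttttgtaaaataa
Tpm3, chr3:89885538-89885738: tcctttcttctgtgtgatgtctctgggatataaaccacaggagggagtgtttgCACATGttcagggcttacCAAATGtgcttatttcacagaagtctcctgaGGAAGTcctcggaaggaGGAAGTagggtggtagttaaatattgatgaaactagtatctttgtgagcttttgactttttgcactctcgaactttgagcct
Klf6, chr13:5782473-5782673: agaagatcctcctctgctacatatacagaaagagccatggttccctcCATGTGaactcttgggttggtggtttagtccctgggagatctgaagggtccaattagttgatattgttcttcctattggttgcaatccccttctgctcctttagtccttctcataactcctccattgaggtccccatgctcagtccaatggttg
Runx1, chr16:92717990-92718190: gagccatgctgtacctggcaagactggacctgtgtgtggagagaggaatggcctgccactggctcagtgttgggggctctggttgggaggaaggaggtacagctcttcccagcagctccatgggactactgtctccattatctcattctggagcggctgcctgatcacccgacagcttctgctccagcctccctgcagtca
Gm11400, chr11:3050038-3050238: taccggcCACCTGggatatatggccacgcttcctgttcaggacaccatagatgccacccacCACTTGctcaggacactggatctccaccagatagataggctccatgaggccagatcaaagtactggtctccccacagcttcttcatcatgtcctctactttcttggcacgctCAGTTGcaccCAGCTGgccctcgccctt
The Cd180 and Tpm3 windows held E-boxes and GGAAGT, the Klf6 window held a CATGTG without GGAAGT, and the Runx1 window held neither. The Gm11400 window held E-boxes of other middle letters than CACGTG or CATGTG.

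The palindromic E-box CACGTG occurred in 16 of the 475 windows that could be read. It lay within 50 bp of the center and nearest to a protein-coding gene in the stretches of 30 bp below, on the plus strand of mm9, with CACGTG in capitals. Trpm8 encodes a cold-sensing ion channel, Cited2 a transcriptional co-regulator, Nf2 the tumor suppressor merlin and Nav2 a neuron navigator protein.
Heatr7b1, chr1:90137426-90137455: gcactcactagtCACGTGacttggatcaca
Gm15698, chr11:88829635-88829664: atgagccaccgcCACGTGagtacagagact
Trpm8, chr1:90200418-90200447: tatggctatgtgCACGTGggcatacacatg
Gm11102, chr1:120403980-120404009: aaatgcttcagtCACGTGactatgtccctg
Cited2, chr10:17277486-17277515: gtccataagggaCACGTGgagtgcacacat
Nf2, chr11:4752886-4752915: tcccttgcctatCACGTGggagaccagggt
1700010I14Rik, chr17:9187918-9187947: aaggaaggaagaCACGTGatgtcaacctct
Nav2, chr7:56544513-56544542: acattctgcatcCACGTGtgacacgcactc
Gm10083, chr8:48490862-48490891: tggtattacaagCACGTGccaccaccatga
The longer palindrome TCACGTGA occurred in 2 of the 475 windows, those of the Heatr7b1 and Gm11102 stretches. The Heatr7b1 and Trpm8 sites belonged to the MITF 36 h list, with scores of 22.4 and 9.7. The other sites belonged to the MITF OC list, where Gm15698 scored 11.4 and the rest 9.1, the lowest value of that list.

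The score of a peak is its number of tags scaled by the peak caller HOMER to a common library size. Scores in each MITF list were whole multiples of 1 value, and dividing by it gave back the tags. The implied libraries had 8760000 to 10270000 tags for MITF, 5860000 to 6810000 for PU.1 and 3120000 for IgG, if HOMER's usual scale is assumed. The PU.1 lists held 71941 to 77072 peaks and the MITF lists 3540 to 5413. Of the PU.1 peaks, 76242 of 76243 in MPs and 77071 of 77072 in OCs were 150 bp wide. The PU.1 36 h list differed from these, with widths of 98 to 190 bp and 0 peaks of 150 bp. The MITF 36 h list stood apart from the other MITF lists. Its peaks were 150 to 1387 bp wide and reached a score of 1012.3, whereas all peaks of the other MITF lists were 150 bp wide and scored at most 136.1. Several results are therefore given by list, or with and without the 173 regions that were called only in the 36 h list. Distances to PU.1, shares of motifs and counts of nearest genes are given for the regions of all lists together.

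MITF peaks without a PU.1 peak were few in every list. In MPs they were 88 of 5413 peaks, or 1.63% (1.32 to 1.999). At 36 h they were 197 of 3540, or 5.56% (4.86 to 6.37), and in OCs 275 of 4443, or 6.19% (5.52 to 6.94). The share in MPs lay below those at 36 h and in OCs, whose intervals overlapped. The lists do not share a lower limit, as their lowest peaks had 9 tags in MPs, 10 at 36 h and 8 in OCs. Of the 275 OC peaks without PU.1, 196 had 8 tags, fewer than any MP peak. At 2 times the lowest score of each list the shares were 0.336% in MPs, 5.32% at 36 h and 0.753% in OCs. The part of the calling limit in the difference between MPs and OCs was not tested. When each MITF list was compared only with the PU.1 list of its own time, the shares were 2.09%, 6.16% and 6.71%. Thus 25, 21 and 23 further MITF peaks of the 3 lists met a PU.1 peak only at another time.

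In MPs and OCs, the peaks without PU.1 were weak peaks. In MPs their median score was 10.4 against 12.5 for the peaks with PU.1, and the highest was 28. In OCs the median was 9.1 against 12.6, and the highest was 33.1. Of the OC peaks without PU.1, 71.3% had 8 tags, the lowest number in the list, against 21.4% of those with PU.1. In MPs the corresponding shares at 9 tags were 42.0% and 17.7%. Accordingly, the share without PU.1 fell from 18.05% (15.9 to 20.4) of the OC peaks with 8 tags to 0.876% (0.425 to 1.797) at 16 to 31 tags, and it was 0 of 131 peaks above that. In MPs it fell from 3.78% (2.75 to 5.17) at 9 tags to 0.385% (0.1497 to 0.985) at 18 to 35 tags, and to 0 of 152 above that.

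The 36 h list did not follow this order. There 6.49% (4.78 to 8.75) of the peaks with 10 tags and 6.33% (4.93 to 8.10) of those with at least 40 tags lacked PU.1. The median score of the 36 h peaks without PU.1 was 21.4 against 23.4 with PU.1, and 101 of the 197 were wider than 150 bp. All 56 regions with a score over 40 owed it to the 36 h list, and 51 of the 56 lay in a cluster of 3 or more regions described below. Without such clusters the median of the 36 h list was 11.7.

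**Figure D1:**
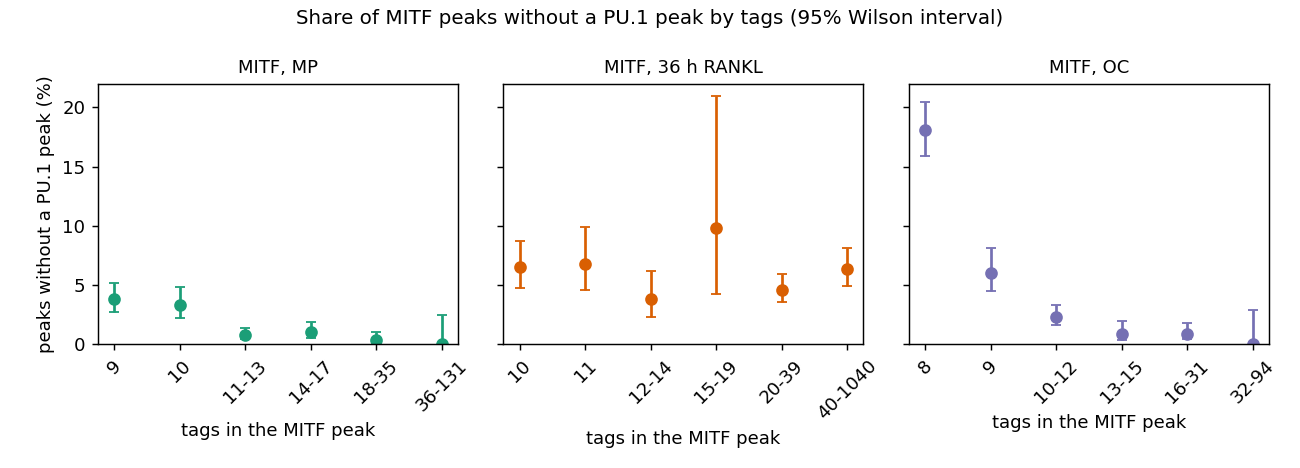
The vertical axis gives the share of MITF peaks without a PU.1 peak, and the horizontal axis the tags in the MITF peak, for the MP, 36 h and OC lists, with bars for the 95% Wilson interval. The share falls with tags in MPs and from 18.05% at 8 tags in OCs, and stays between 3.82% and 9.80% at 36 h.

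Distance to PU.1 varied widely. The median distance to the nearest PU.1 peak of any list was 6114 bp. A PU.1 peak lay within 500 bp of 74 regions and within 1000 bp of 103, whereas 207 regions were more than 10 kb and 79 more than 100 kb from one. These counts include 44 regions on contigs of unplaced sequence, 34 of them on Un_random. The place of such contigs in the genome is not known, so distances on them may not be genomic distances. The 74 near regions had a median distance of 120 bp, and in 29 of them (39.2%) the near PU.1 peak overlapped another MITF peak. Just inside the rule lay an OC peak of 9 tags at chr10:5745012-5745162, 1 bp from a PU.1 peak of MPs. Just outside lay a 36 h peak of 11 tags at chr5:140855171-140855321 that shared 1 bp with a PU.1 peak of 36 h.

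**Figure D2:**
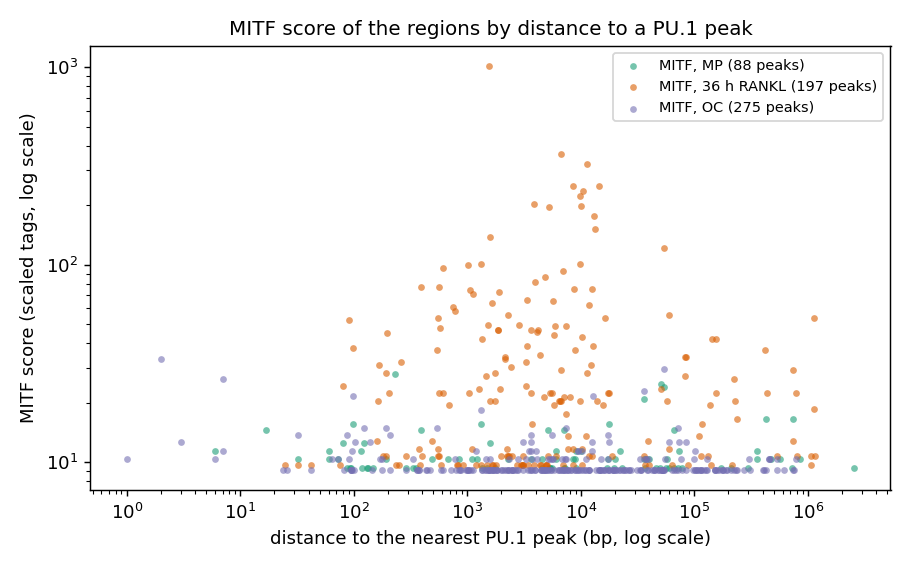
Each point is a MITF peak of the 519 regions, placed by its region's distance to the nearest PU.1 peak in bp and by its MITF score, both on log scales and coloured by list. Scores over 40 belong to the 36 h list, and MP and OC peaks stay at or below 33.1 at every distance. Regions on contigs of unplaced sequence are included, where distances may not be genomic distances.

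The regions were mostly called at 1 time. Only 33 of 519 (6.36%, 4.56 to 8.80) were called at more than 1 time, against 3657 of 7182 MITF regions with PU.1 (50.9%, 49.8 to 52.1). The difference was -44.6 percentage points (-46.7 to -41.9). Times were counted from the peaks of each set alone. A MITF peak with PU.1 thus added no time to the 8 regions that overlapped one. Regions of OCs alone numbered 249, those of 36 h alone 173 and those of MPs alone 64. Without the 173 regions of 36 h alone, the share at more than 1 time was 9.54% of 346. To compare peaks of equal strength, 464 regions were set beside regions with PU.1 of the same list and the same number of tags. Of these 6.68% were called at more than 1 time, against 29.1% of their counterparts.

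**Figure D3:**
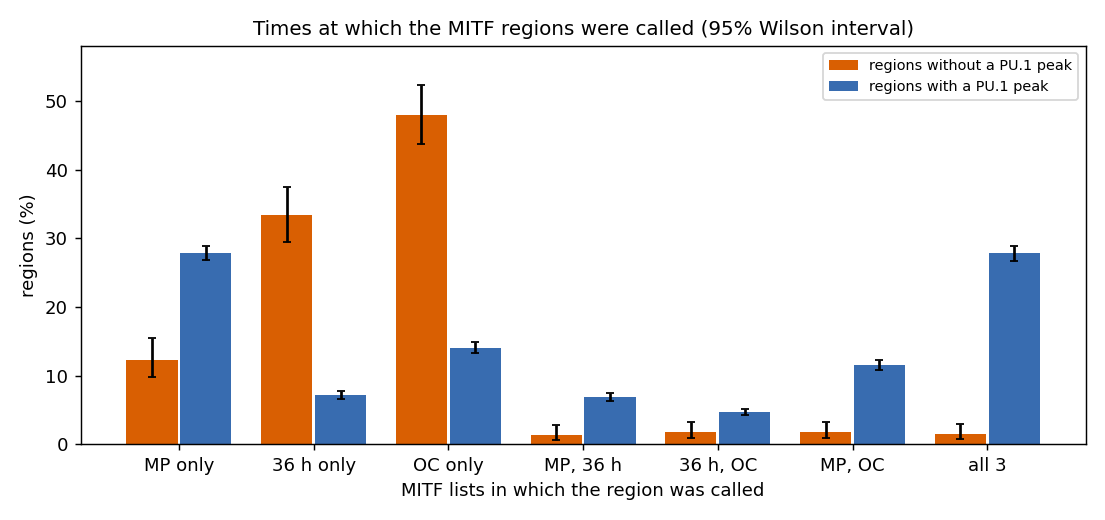
Bars give the percentage of 519 regions without and 7182 regions with a PU.1 peak that were called in each combination of the MITF lists, with 95% Wilson intervals. Regions of OCs only make up 48.0% of those without PU.1 and 14.02% of those with it, and regions of all 3 times 1.54% and 27.8%.

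At all 3 times 8 regions were called. The Cd180 region, chr13:103485687-103485889, scored 10.4 in MPs, 28.2 at 36 h and 14.8 in OCs. It lay in an intron 2114 bp downstream of the start site and 193 bp from a PU.1 peak. Near Zfp746, a zinc finger gene, chr6:48071180-48071430 scored 20.8, 10.7 and 22.8, so that 36 h was the lowest of its 3 values. A pair of regions between Gm13847 and Podxl, which encodes a sialomucin of the cell surface, lay less than 1 kb apart on chromosome 6. Its first member scored 15.6, 22.4 and 12.6 and its second 10.4, 22.4 and 13.7, highest at 36 h in both. The highest of the 8 was chr1:197067692-197068128, 13438 bp from the start of AC109145.1, with 23.9 in MPs, 120.7 at 36 h and 29.7 in OCs. A region in Pisd-ps2, a pseudogene of the phosphatidylserine decarboxylase gene Pisd, scored 15.6, 100.3 and 18.3. Regions in AA474408 and near a 7SK gene scored 9.1 to 20.4. The windows of 4 of these 8 regions matched mm9 once and those at AC109145.1, Pisd-ps2, Zfp746 and AA474408 matched it 2, 3, 4 and 14 times.

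Among the 25 regions called at 2 times, Obfc1, a gene of telomere maintenance, fell the most. Its intronic region, chr19:47583019-47583229, scored 52.6 at 36 h and 10.3 in OCs, a ratio of 0.195 (0.0849 to 0.399). The Tpm3 region scored 15.6 in MPs and 21.7 in OCs, a ratio of 1.39 (0.670 to 2.94) whose interval includes no change. The largest rise was near the vomeronasal receptor pseudogene Vmn1r-ps2, from 14.5 in MPs to 76.9 at 36 h, a ratio of 5.29 (2.97 to 10.1). The following were named after their values had been seen. Regions near Nr4a1, an orphan nuclear receptor gene, Csf2ra, which encodes the GM-CSF receptor alpha chain, and Tmem53 were called in MPs and OCs with scores of 10.4 to 14.8. The Nr4a1 and Tmem53 regions lay 32 and 122 bp from a PU.1 peak, and the Csf2ra window matched mm9 6 times. A region within Bach2, which encodes a transcriptional repressor of lymphoid and myeloid cells, scored 11.4 and 10.3 and lay 6 bp from a PU.1 peak.

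Changes between times at these regions were read against those of all MITF regions. Of all 2509 pairs of MITF peaks, 37.1% scored at least 2-fold higher at 36 h than in MPs, and 6 of the 15 pairs without PU.1 did so (40%). At least 2-fold lower in OCs than at 36 h were 43.8% of 2352 pairs, and 5 of 17 pairs without PU.1. At least 2-fold higher in OCs than at 36 h were 0.85% of pairs, and 1 of 17 without PU.1, the Zfp746 region. Lower at 36 h than in MPs were 2.11%, and 0 of 15. Between MPs and OCs, 0.633% of 2844 pairs rose and 3.9% fell by 2-fold, and 0 of 17 pairs without PU.1 did either. The pairs without PU.1 that were 2-fold higher at 36 h were 6 of the 8 whose 36 h peak was wider than 150 bp, and 0 of the 7 whose 36 h peak had that width. Likewise, the 5 pairs that were 2-fold lower in OCs than at 36 h, Obfc1 among them, were 5 of the 9 with a wider 36 h peak and 0 of the 8 with one of 150 bp. The part of peak width in the rise and in the fall was not tested.

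The regions of the 36 h list, unlike those of the other lists, mostly lay in clusters. When regions with gaps up to 100 kb were joined, 22 clusters of 3 or more held 177 regions, 32 regions lay in pairs and 310 stood alone. Of the 197 peaks of the 36 h list 146 (74.1%) were in such clusters, against 18 of 88 (20.5%) in MPs and 25 of 275 (9.09%) in OCs. Some of the 22 clusters lay on contigs of unplaced sequence, where gaps may not be genomic distances. Such contigs carried 31 of the 197 regions of the 36 h list (15.7%), 8 of 88 in MPs (9.09%) and 7 of 275 in OCs (2.55%).

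The largest cluster, chr11:3004420-3095280, held 46 regions in 90.9 kb, all called at 36 h only. The centers of 34 lay in Sfi1, which encodes a centrin-binding protein of the spindle pole, and 6 lay in Pisd-ps1. It took 45.6% of the 36 h tags in the 519 regions and held ranks 2 to 10 by score, from 364.0 over Gm11400 to 194.7. A region 35 bp from a start site of Sfi1, chr11:3093201-3093549, scored 221.9. In the same span the MITF MP list had 1 peak, the MITF OC list 2 and the 3 PU.1 lists 4 to 5. Of the 49 MITF 36 h peaks there, 46 lacked PU.1. The IgG list had 0 peaks there, but it is from MPs, so it cannot show background at 36 h. The windows of 23 of the 46 regions matched mm9 more than once.

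The next cluster, chr1:90110159-90206608, held 32 regions, of which 30 were called at 36 h. It ran from the 3′ end of the Ugt1a locus, whose enzymes attach glucuronic acid to bilirubin and drugs, through Heatr7b1 with 12 region centers and Hjurp, the chaperone gene of the centromeric histone CENP-A, with 7, into Trpm8 with 8. Its median score was 11.7 against 49.6 in the Sfi1 cluster, and none of its 32 windows matched mm9 more than once. The third, within Mid1 on the X chromosome, a gene for a microtubule-associated ubiquitin ligase, held 11 regions with a median score of 33.1, of which 11 were called at 36 h and 1 also in OCs. The highest region of all, chr17:39982042-39983254, scored 1012.3 at 36 h alone and lay 3124 bp from the start of the pseudogene AY036118. It belonged to a cluster of 4 regions, of which 3 had an IgG peak within 500 bp. This cluster took 13.6% of the 36 h tags in the regions without a PU.1 peak. For its 4 regions the deposited list names a transcript that has no gene symbol here. Whether the cluster lies within that transcript was not tested. Pisd itself on chromosome 5 had a cluster of 6 regions, of which 3 were called in MPs, 2 at 36 h and 3 in OCs. One of its windows matched the Pisd-ps2 cluster on chromosome 17 with 94.96% identity over 139 bp.

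**Figure D4:**
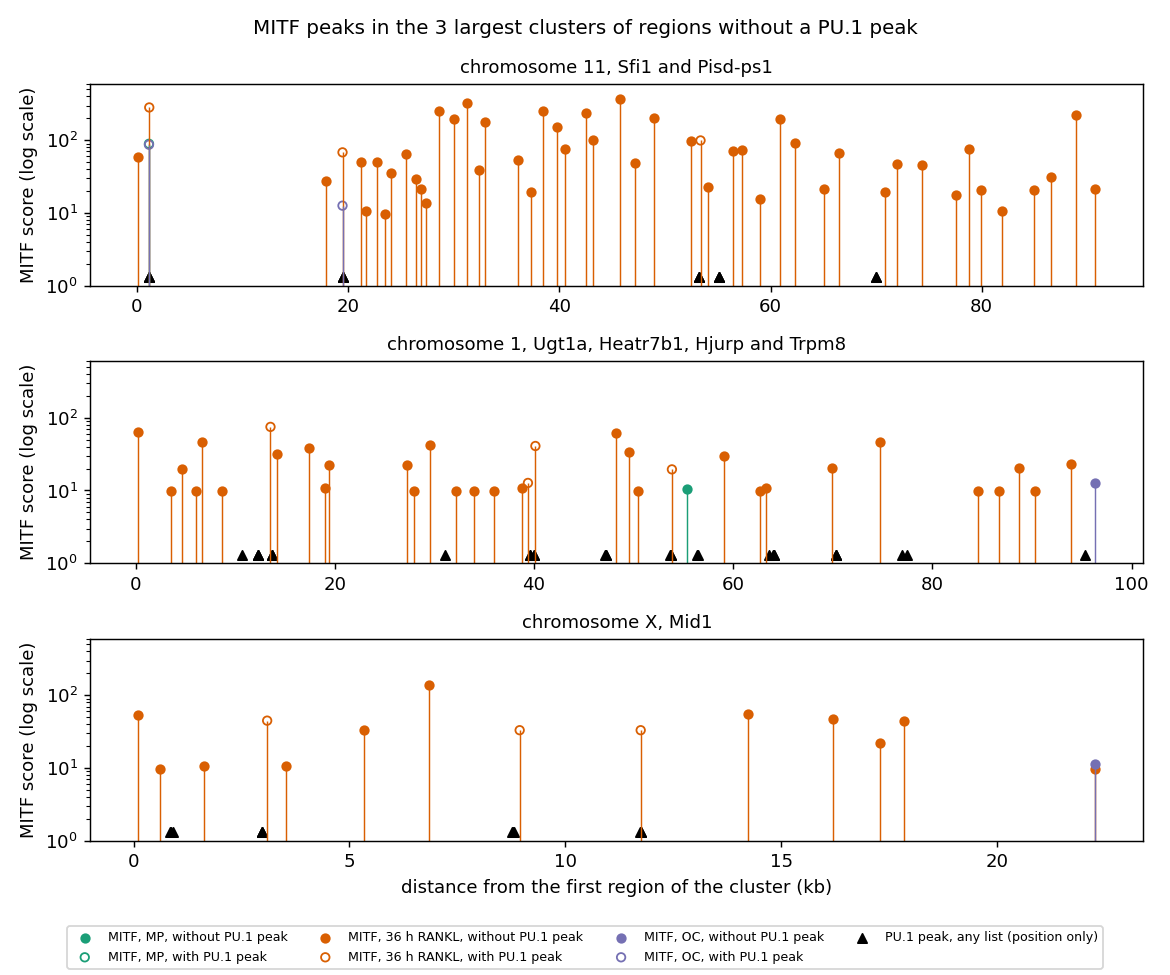
Each panel shows a cluster of regions without a PU.1 peak, with distance from its first region in kb and the MITF score on a log scale. Filled points are MITF peaks without and open points those with a PU.1 peak, and black triangles mark positions of PU.1 peaks only. The chromosome 11 panel has 46 filled points, all of the 36 h list, up to 364.0.

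Repeated sequence moved with the absence of PU.1. The 151 bp around the center matched mm9 more than once for 115 of 475 regions (24.2%, 20.6 to 28.3), against 3.34% (2.95 to 3.79) of 7176 regions with PU.1, a difference of 20.9 percentage points (17.2 to 24.9). Beside regions with PU.1 of the same list and tags, the shares were 23.9% and 4.12%. By list it was 31.3% in MPs, 39.2% at 36 h and 16.04% in OCs. Contigs of unplaced sequence carried 44 of the 519 regions (8.48%) and 6 of the 7182 (0.0835%), and these 44 have no sequence or gene annotation here. An IgG peak overlapped 4 of 519 regions (0.771%, 0.300 to 1.965) and 3 of 7182 with PU.1 (0.0418%), and lay within 500 bp of 28 (5.39%, 3.76 to 7.69) and of 9 (0.125%). The 4 overlaps were among the regions called at 36 h only. The part of repeats and of background in the absence of PU.1 peaks was not tested.

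No excess of E-boxes over the surrounding sequence was detectable in these regions. Windows of 201 bp held CANNTG in 65.3% (60.9 to 69.4) of 475 regions, in 62.7% (61.6 to 63.8) of 7176 regions with PU.1, and in 65.5% (62.4 to 68.5) of 942 windows centered 1 kb to either side of the former. CATGTG was found in 16.2% (13.2 to 19.8), 14.2% and 15.7%, and CACGTG in 3.37% (2.08 to 5.40), 2.90% and 2.76%. Against the flanks the differences were -0.236 (-5.53 to 4.94) percentage points for CANNTG, 0.499 (-3.41 to 4.70) for CATGTG and 0.608 (-1.19 to 2.82) for CACGTG, and every interval includes 0. For these forms the regions with PU.1 showed no excess over their own flanks either, with differences of -4.01 (-5.37 to -2.65), -2.52 (-3.52 to -1.50) and 0.118 (-0.342 to 0.605). The 8-base form TCATGTGA was found in 1 of 475 regions (0.211%) and in 1.56% of those with PU.1, a difference of -1.35 points (-1.71 to -0.343). Against the flanks of each set, its difference was -0.533 points (-1.33 to 0.512) without PU.1. With PU.1 it was 0.515 points (0.198 to 0.865), an excess. CATGTG lies within TCATGTGA, and CANNTG includes all E-boxes named here.

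The PU.1 core was rarer in the regions than in those with PU.1. The sets were split by PU.1 peaks, so their gap in the motif of PU.1 itself is given as a description. GGAAGT occurred in 17.3% (14.1 to 20.9), against 74.1% (73.0 to 75.1) of the regions with PU.1, a difference of -56.8 points (-60.1 to -53.0). Beside regions of the same list and tags the shares were 17.7% and 71.7%. The flanks of the regions held it in 13.5% (11.4 to 15.8), and the difference of 3.78 points (-0.123 to 7.97) includes 0. GAGGAAGT occurred in 2.53% (1.45 to 4.36) against 33.2%, with 1.805% in the flanks. Near PU.1 peaks the core was more frequent, with 40.5% (30.1 to 51.9) of the 74 regions within 500 bp, 13.97% (10.1 to 19.1) of 229 at up to 10 kb and 11.6% (7.65 to 17.3) of 172 beyond. The Cd180 and Tpm3 windows printed above, 193 and 99 bp from a PU.1 peak, belong to the near class. GGAA alone, which most windows of this length hold, was in 89.3% and 99.7%.

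Among partners, TGANTCA, the AP-1 site bound by FOS and JUN proteins, occurred in 5.26% (3.59 to 7.65) of the regions against 11.5% with PU.1 and 5.41% in the flanks. TGTGGT, the RUNX site, was in 18.3% against 17.8%. TTGCGNAA, a C/EBP site, was in 0 of 475 regions, which allows up to 0.802%, and in 0.711% of those with PU.1. Of the promoter and insulator motifs, CCGGAAG occurred in 1.05%, GGGCGG in 2.53%, CCAAT in 21.7% and the CTCF core in 0.842%, against 1.74%, 3.89%, 18.7% and 0.599%, with intervals of the differences that include 0. The same held for GTCACGTG, in 0.632% against 0.502%, and for the NRF1 palindrome, found in 0 regions of either kind. GC content had a median of 47.8% and 47.3%.

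**Figure D5:**
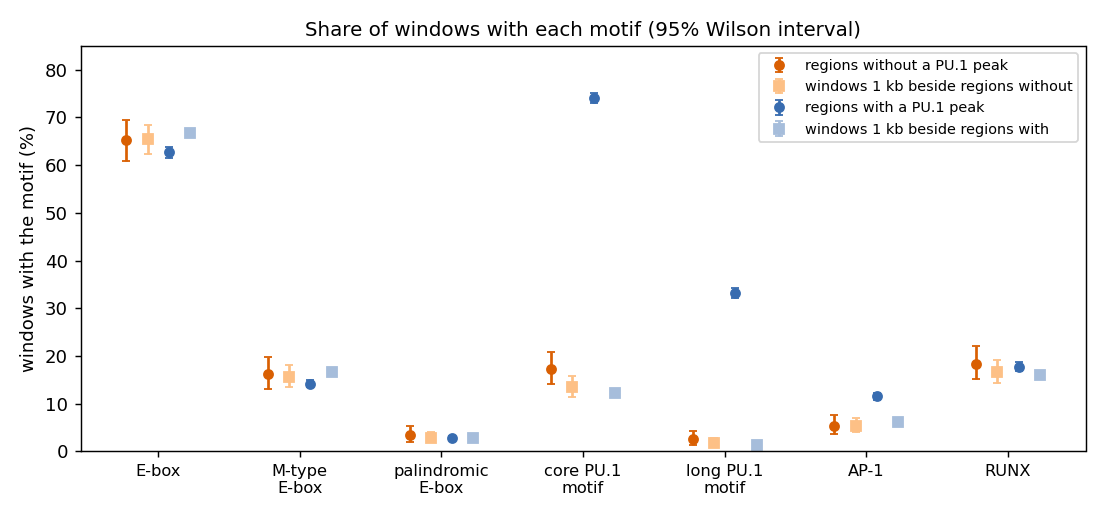
The vertical axis gives the share of 201 bp windows with CANNTG (E-box), CATGTG (M-type), CACGTG (palindromic), GGAAGT (core PU.1), GAGGAAGT (long PU.1), TGANTCA (AP-1) or TGTGGT (RUNX), with 95% Wilson intervals. Regions without PU.1 lie near their flanks for all 7 motifs, while regions with PU.1 rise to 74.1% for the core PU.1 motif.

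The share of regions near start sites rested on the 36 h clusters. Of the 475 annotated regions 49 (10.3%, 7.89 to 13.4) lay within 1 kb of a transcription start site (TSS), against 11.7% (11.02 to 12.5) of those with PU.1, a difference of -1.43 points (-3.97 to 1.71). The Sfi1 cluster supplied 18 of the 49, and the 5 highest regions near a TSS were all of that cluster, with scores of 364.0 to 221.9. Without clusters the share was 4.20% of 333, a difference of -7.54 points (-9.39 to -4.72) from all regions with PU.1. Without the regions of 36 h alone in either set it was 5.44% of 331 against 11.6% of 6662, a difference of -6.18 points (-8.30 to -3.09). Regions more than 100 kb from a TSS made up 12.6% (9.94 to 15.9) against 5.57%, a difference of 7.06 points (4.31 to 10.4). Introns held 224, intergenic sequence 204 and exons 47, the last being 9.89% against 5.66% with PU.1. The nearest gene was protein-coding for 63.2% against 77.5%, a pseudogene for 10.9% against 5.48% and a processed transcript for 10.7% against 4.65%.

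The 475 regions lay nearest to 337 different genes, 301 of them with 1 region. Of the 337, 129 (38.3%) were also nearest to a MITF region with PU.1, which is 2.80% of the 4610 genes of those regions. Genes of MITF's known functions and of OCs were counted from fixed lists. None of 45 annotated genes of lysosomes and the proton pump V-ATPase was nearest to a region without PU.1, whereas 24 were nearest to one with PU.1. None of 25 genes of autophagy and TFE signalling was found against 9, and none of 19 genes of OC function against 9. Of 35 genes of OC transcription factors there were 2 against 19. As shares of the 337 and 4610 nearest genes, these were 0% against 0.521%, 0.195% and 0.195% for the first lists, and 0.593% against 0.412% for the transcription factors. The intervals of all 4 differences include 0, so the lists were not detectably rarer beside regions without PU.1.

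The 2 were Runx1, a factor of blood formation, and Klf6, a zinc finger factor of macrophages, and both were nearest to regions with PU.1 as well. The Runx1 region, chr16:92718015-92718165, lay in an intron 20517 bp upstream of the nearest start site and 1658 bp from a PU.1 peak. The Klf6 region, chr13:5782498-5782648, was intergenic, 78162 bp upstream of the start site and 2178 bp from a PU.1 peak. Each was called in OCs alone with 8 tags and a score of 9.1. The Klf6 window matched mm9 50 times and the Runx1 window once.

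The highest region of the MP list was chr2:127834918-127835068, an intronic site of Acoxl, an acyl-CoA oxidase-like gene, that the deposited list names for its neighbor Bcl2l11, a pro-apoptotic gene. It scored 28 in MPs alone and lay 230 bp from a PU.1 peak. The highest OC regions were chr18:3010253-3010403 with 33.1, 2 bp from a PU.1 peak, and the AC109145.1 region with 29.7. Next came a region in Pisd-ps2, chr17:3081974-3082124, with 26.3, and it lay 7 bp from a PU.1 peak. After these came the Zfp746 region and chr13:100560806-100560956. The latter lay 109757 bp from the start site of the nearest protein-coding gene, Cartpt, a neuropeptide gene. It was called in OCs alone with 21.7, the OC score of the Tpm3 region too.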

How the data were processed

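One list of peaks per library was used. The authors read out the sequences with CASAVA 1.8, mapped them with Bowtie2 to mm9 and called peaks with HOMER, per the labels; the settings and other versions are not given in the sources used here. The deposited score is a normalised tag number per peak, and deposited positions are on mm9. No reads were analysed, so no peak was called again.

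Peaks sharing 1 bp or more counted as overlapping. Shares have Wilson intervals, their differences Newcombe intervals and ratios of tags exact binomial (Clopper-Pearson) intervals. Regions of a cluster are not independent, so these intervals are too narrow. With 1 library per condition a region was called changed at 2-fold. Distances and classes refer to the center of the highest peak and the GENCODE annotation of mm9. Both strands of the 100 bp on each side of it were scanned for motifs. Matches in mm9 were found with BLAST+ 2.17.0 (word size 28, E-value at most 1e-10, at least 80% identity over at least 80% of 151 bp). It returned no match for 1.26% of windows without and 1.16% with PU.1. Counterparts of the same list and tags were averaged for each region.

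Named regions were the 10 highest, those at 3 times, the 5 highest near a TSS and of each list, the 3 largest ratios each way, list members and those at the edge of the rule. The members, lists and tests were chosen with earlier results of these data known. Python 3.11.15, numpy 2.4.6, scipy 1.17.1, pysam 0.24.0, samtools 1.23.1 and matplotlib 3.10.9 were used. On 400 simulated peaks overlaps and distances had 0 mismatches with a brute-force search. Other settings for overlap, score, width, window, TSS and IgG were tried.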

Additional observations from a re-analysis of the deposited data

How the results depend on the processing

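The number of regions stayed within 1.5 times of 519 (346 to 581) under other overlap limits, PU.1 or MITF lists and chromosomes, except that it was 270 without the OC list, 120 at 2 times the lowest score of a list and, chosen after seeing the data, 342 without clusters of 3 or more. At 2 times the lowest score, the share of peaks without PU.1 fell to 0.336% in MPs and 0.753% in OCs but was 5.32% at 36 h, the share of regions at more than 1 time was 3.33%, and the share within 1 kb of a TSS rose to 26.2%. Against PU.1 of the same time only, the share of MITF peaks without PU.1 was 2.09% in MPs. The TSS share was 7.16% with protein-coding genes only and 4.05% with the RefSeq genes of the lists. Alternatives chosen after seeing the data gave 4.20% near a TSS without clusters and 5.44% without the regions of 36 h alone, and 4.52% (1 match in mm9) and 9.54% (without 36 h alone) at more than 1 time. An IgG peak overlapped 0.292% without clusters, 0.282% with 1 match in mm9 and 0% without 36 h alone, and lay within 500 bp of 5.39%. With 36 h peaks of 150 bp, 0 of 7 were 2-fold higher at 36 h than in MPs.

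With 75 bp on each side, fewer bases were searched, and CANNTG was found in 55.6%, GGAAGT in 13.9%, GGAA in 81.9%, TGANTCA in 3.37%, TGTGGT in 14.5%, CCAAT in 16.2% and TCATGTGA in 0%. At 2 times the lowest score the share was 1.94% for CACGTG, 0.971% for GAGGAAGT, 12.6% for GGAAGT, 24.3% for TGTGGT, 5.83% for GGGCGG and 0% for TCATGTGA and the CTCF core. The causes were not tested. The lowest peaks had 8 to 10 tags in the MITF lists and 6 to 7 in the PU.1 lists, so a signal below these limits was not detectable. No paired analysis was possible because each condition has 1 library.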
